A study of Mus musculus with 27 samples.

Results

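The INK4 inhibitors, the D-type cyclins, their kinases, the retinoblastoma gene and Myc were followed through mouse osteosarcomas and their metastases. Probes were taken where the platform annotation names Cdkn2a, Cdkn2b, Cdkn2c, Ccnd1, Ccnd2, Ccnd3, Cdk4, Cdk6, Rb1 or Myc, and each gene was represented by the probe with the highest mean over 27 arrays. All 10 genes were found, among 19057 genes named on the array, with 24 probes between them. All 10 passed the detection filter of every comparison between groups. The samples were 6 localized primary tumours, 12 primary tumours that had given metastases, 7 lung metastases, each with its own primary among the 12, and 2 liver metastases. They came from mice on a C57BL/6 background in which a Cre transgene driven by the rat Col1a1 2.3 kb promoter (Col2.3-Cre), active in osteoblast lineages, acts on a floxed p53 allele or on the LSL-p53R172H allele, so altered p53 is common to every group. The labels used here do not give which of the p53 alleles each tumour carried, nor its age, and the primary of the second liver metastasis (RF-342) was not analysed here. Tumours are called by the specimen identifiers of the labels, and whether each specimen is a separate animal is not stated, so p-values measure the spread between specimens.

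Cells enter the division cycle when D-type cyclins bind the kinases CDK4 and CDK6 and the complexes phosphorylate the retinoblastoma protein, which otherwise holds E2F transcription factors in check. INK4 proteins bind CDK4 and CDK6 and keep the cyclins off. The Cdkn2a gene is read from separate first exons into p16INK4a, an INK4 inhibitor, and p19ARF, which stabilises p53 by restraining MDM2. The transcription factor MYC drives growth and cell cycle genes, Cdk4 and Ccnd2 among them. In human osteosarcoma, loss of RB1 or of the CDKN2A locus and gain of CDK4 or MYC are well-known lesions.

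The start regions of 6 of the 10 genes were in the RefSeq promoter table (assembly GRCm38.p6), and 3 of these windows are shown because the text returns to them. They are the separate start sites of Cdkn2a and the start of Cdk4, which holds a repeated motif. Whether the probes separate the products of the Cdkn2a starts was not examined. Each window runs from 250 bases before the start to 50 bases after it, 5′ to 3′. In the Cdkn2a windows capitals mark the 50 bases from the start on, and in the Cdk4 window they mark CACGTG, the E-box that MYC and its partner MAX bind.
Cdkn2a, upstream start, chr4:89294570-89294869, minus strand: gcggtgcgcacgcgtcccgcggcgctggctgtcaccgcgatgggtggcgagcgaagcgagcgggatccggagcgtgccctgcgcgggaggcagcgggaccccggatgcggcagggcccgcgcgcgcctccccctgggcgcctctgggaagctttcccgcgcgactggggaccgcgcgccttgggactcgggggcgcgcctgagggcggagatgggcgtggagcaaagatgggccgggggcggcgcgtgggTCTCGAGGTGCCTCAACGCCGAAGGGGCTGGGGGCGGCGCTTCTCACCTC
Cdkn2a, downstream start, chr4:89282143-89282442, minus strand: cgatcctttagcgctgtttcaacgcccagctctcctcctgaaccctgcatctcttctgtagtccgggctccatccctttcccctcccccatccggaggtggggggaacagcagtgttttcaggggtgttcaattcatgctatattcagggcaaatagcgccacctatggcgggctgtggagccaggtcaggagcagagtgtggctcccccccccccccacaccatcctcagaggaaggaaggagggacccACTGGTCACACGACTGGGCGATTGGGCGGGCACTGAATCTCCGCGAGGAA
Cdk4, chr10:127063285-127063584, plus strand: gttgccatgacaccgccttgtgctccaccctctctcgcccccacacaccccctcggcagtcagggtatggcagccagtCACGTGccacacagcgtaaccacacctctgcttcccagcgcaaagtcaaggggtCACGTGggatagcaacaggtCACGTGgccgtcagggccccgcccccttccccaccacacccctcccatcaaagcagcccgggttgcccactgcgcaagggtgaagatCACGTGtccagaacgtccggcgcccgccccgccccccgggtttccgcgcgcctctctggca
CACGTG reads the same on both strands. The Cdk4 window holds 4 copies of it, which begin at positions -172, -118, -98 and -11 from the start. Of 32851 windows of the same length in the table, 7.15% held at least 1 copy and 8 windows (0.0244%) held at least 4. Single copies lay in the Cdk6 window and in 1 of the windows of Cdkn2c. Of the E2F motif only the forms TTTCGCGC and TTTGGCGC were searched, on both strands. They were in none of the windows of these genes, against 0.323% and 0.514% of all windows. Other forms were not searched, so the windows may still hold E2F sites. The table had no entry for Ccnd1, Ccnd2, Rb1 or Myc.

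Each sample was hybridised to 1 Illumina bead array, and values are log2 intensities after background correction and quantile normalization, so a difference of 1 is a doubling. Such values compare samples for 1 gene and do not compare genes. Between 42.6% and 47.5% of probes were detected per array. The background of the arrays fell into a low and a high set, and all 7 lung and both liver metastases were in the low set with 4 localized and 2 metastatic primaries, so that site and background largely cannot be told apart. The labelled tissue was checked on marker lists. The mean of 12 osteoblast and bone matrix genes lay at 6.57 to 7.47 in the primaries CR-65, RF-56, CR-45 and FC-28 and at 11.7 to 12.95 in the other 14 primaries. In the lung metastasis of FC-28 the same mean was 6.27, and it was 11.7 to 13.19 in the other 6. That array had the highest lung epithelium mean (12.91) and endothelial mean (11.78) of the 7 and the lowest mitosis mean (5.95, against 7.36 to 8.64). Lung epithelium genes stood at 11.05 to 12.91 in all lung metastases and at 4.89 to 5.67 in the primaries. A mean of 12 skeletal muscle genes ran from 5.11 to 13.57 in the primaries and from 5.1 to 7.49 in the lung metastases. In every pair it was lower in lung, most widely in FC-279 (13.4 and 6.22), CRE-155 (13.57 and 6.93) and CR-147 (12.62 and 6). The part of muscle tissue in the pair differences was not tested. A mean of 12 hepatocyte genes was 10.4 in the lung metastasis of CR-147, 9.82 in that of RF-364 and 9.51 in that of RF-379, and 5.1 to 6.7 in the other 4. In such bulk tissue fewer tumour cells and less RNA per tumour cell cannot be told apart.

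None of the 10 genes differed between groups past the threshold, an adjusted p under 0.05 over all genes tested with limma, in any of the 4 comparisons. Between metastatic and localized primaries, 0 of 10 passed, where 0.00856% of 11684 genes did (1 gene, lower in the metastatic ones). Between the lung metastases and their own primaries, 0 of 10 passed, where 8.28% of 11214 genes did (5.69% higher and 2.59% lower in lung). Against the lung metastases the 2 liver metastases gave 0 of 10, where 9% of 13517 genes passed (5.76% higher and 3.24% lower in liver), and against the metastatic primaries 0 of 10, where 9.37% passed. At an unadjusted p under 0.05 the counts were 0, 2, 1 and 1 of the 10, where 6.53%, 26.2%, 19.1% and 20.9% of all genes tested reached it, so the counts were no higher than those shares. What stood out instead was single tumours: the level of an individual gene in 1 tumour or 1 pair, in several cases together with the genes beside it on the chromosome.

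**Figure D1:**
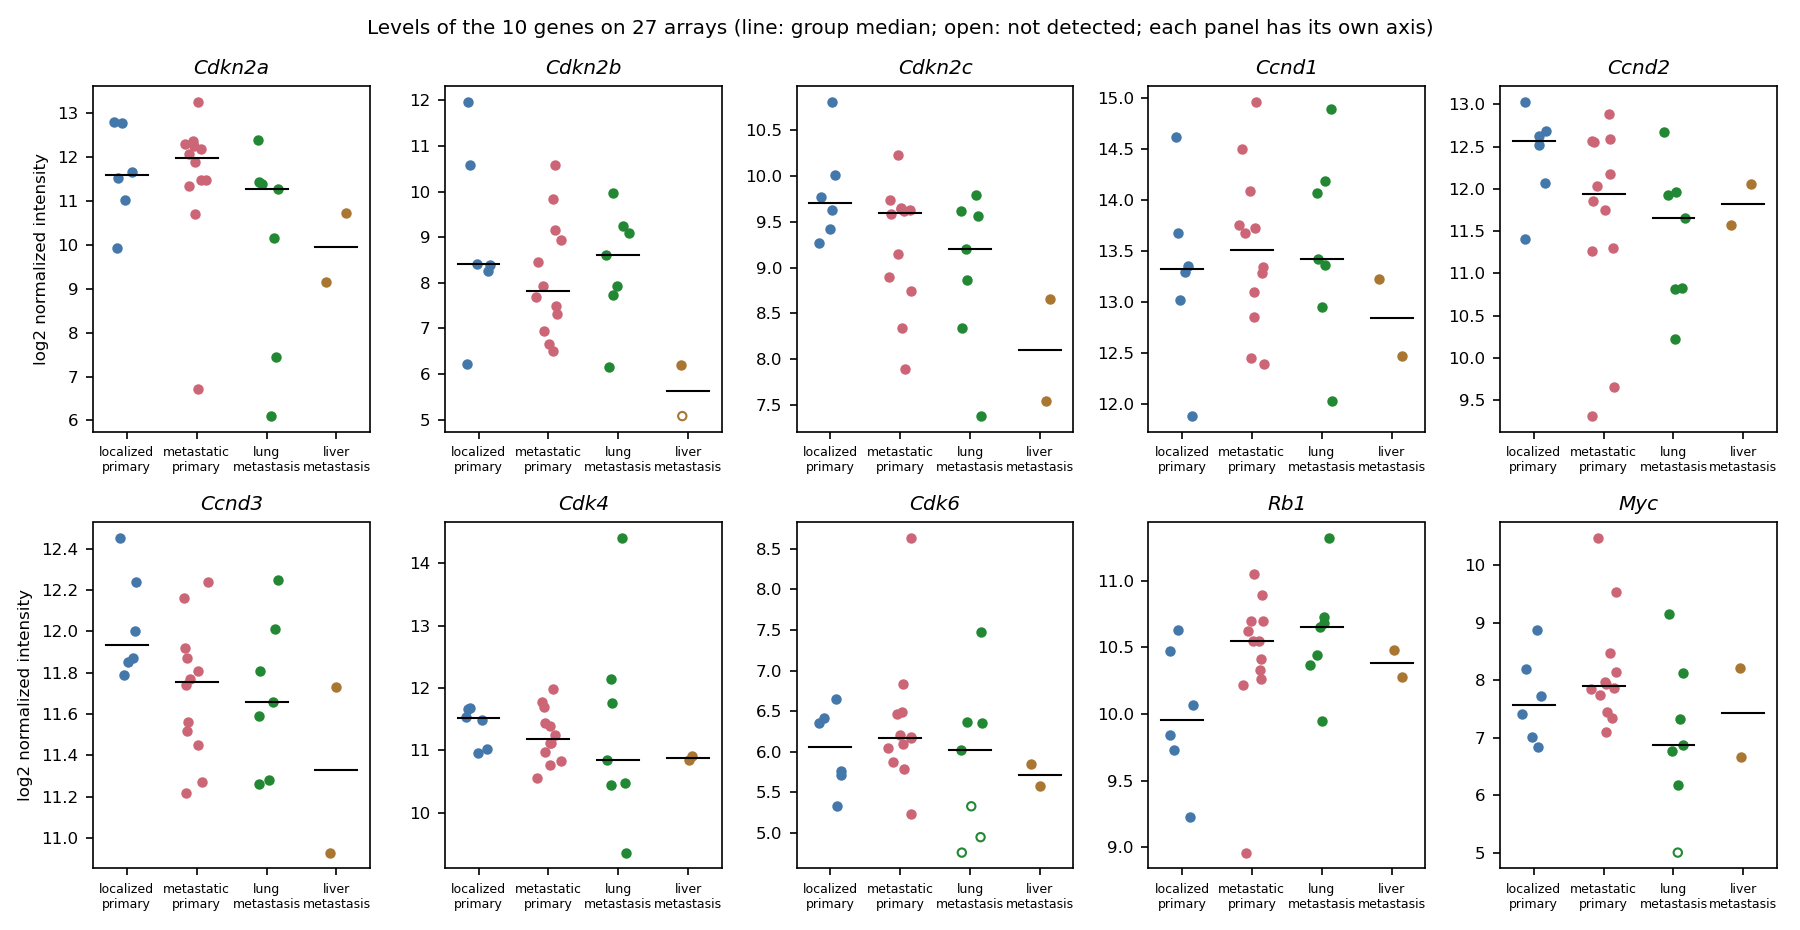
Log2 normalized intensity of each of the 10 genes in 6 localized primaries, 12 metastatic primaries, 7 lung metastases and 2 liver metastases. Each point is 1 array, the line is the group median and open points were not detected. Group ranges overlap in most panels, and single arrays lie far from their group, such as 14.4 for Cdk4 in a lung metastasis and 8.63 for Cdk6 in a primary.

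**Figure D2:**
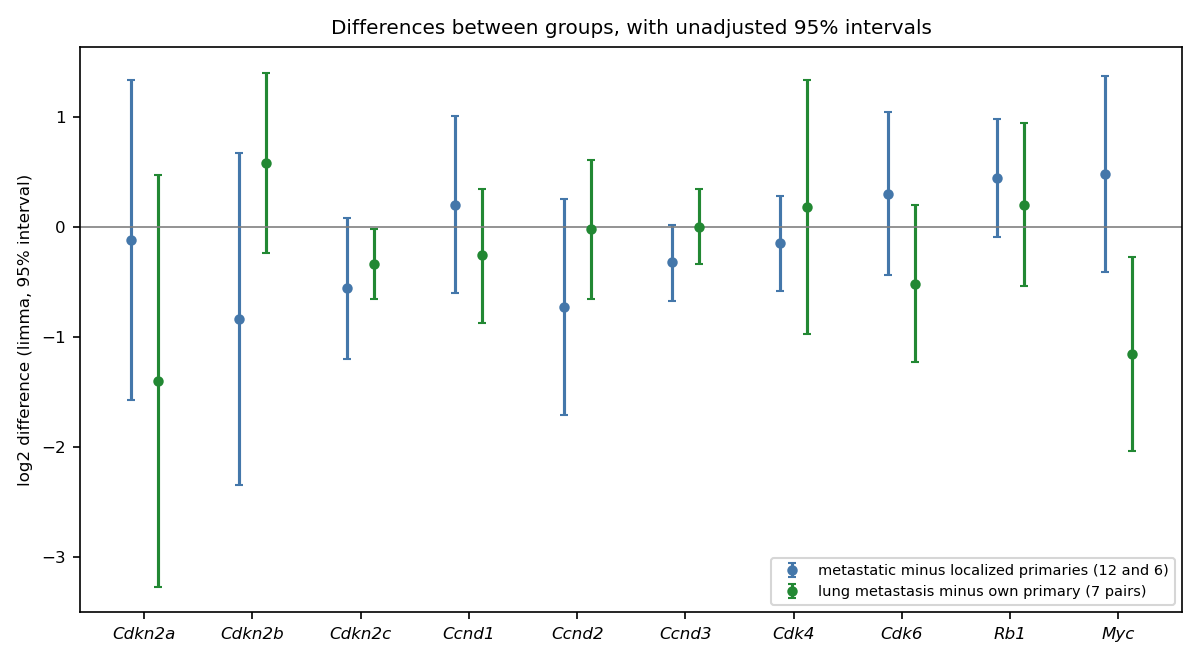
Log2 differences between groups from limma with unadjusted 95% intervals, for metastatic minus localized primaries (12 and 6 arrays) and lung metastasis minus own primary (7 pairs). Only the intervals of Cdkn2c and Myc in the lung pairs lie wholly on 1 side of 0, and neither gene passed after adjustment.

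Cdkn2a, which encodes p16INK4a and p19ARF, was at 9.92, 11.58 and 12.79 (lowest, median and highest) in the localized primaries and at 6.72, 11.97 and 13.25 in the metastatic primaries. The groups overlapped, and the difference was -0.12 (SE 0.69, limma adjusted p = 0.981). Its SD over the 18 primaries, 1.44, was higher than that of 94.6% of the 11684 genes tested, whose median SD was 0.49. The lowest primary was RF-379 at 6.72, with the next lowest, RF-43, at 9.92, and the highest was FC-28 at 13.25. All 3 Cdkn2a probes placed RF-379 lowest and FC-28 highest. On the other probes RF-379 was at 5.44, and at 5.01 where it was not detected, while FC-28 was at 11.21 and 12.26. The platform annotation ties the probes to 2 transcript records, but the probe sequences were not used here and the start sites shown above cannot be assigned to them. The probes followed each other closely over all 27 arrays (r = 0.96 and 0.95 with the probe used), but not in every tumour. On the only probe of 1 transcript record, RF-43 was at 6.66 and RF-44 at 10.77. The other unused probe, tied to the second record, had them at 8.71 and 9.31.

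In the lung metastases Cdkn2a was at 6.1, 11.26 and 12.38, and the mean of 7 pairs was -1.40 (SE 0.83, limma adjusted p = 0.303), with 2 of 7 pairs higher in lung. Without FC-28 the mean was -0.44 (SE 0.32, adjusted p = 0.441). FC-28 was highest of all 27 arrays in its primary and lowest of all in its lung metastasis at 6.1, a log2 difference of -7.16 and the fourth lowest of 11214 genes in that pair. The other 6 pairs lay between -1.73 and 0.73. All 3 probes showed the drop in FC-28, from 11.21 to 5.53 and from 12.26 to 5.05 (not detected) on the other probes. As given above, the same lung array was low in osteoblast and mitosis genes and high in lung epithelium genes, and the part of this in the Cdkn2a value was not tested. RF-379 stayed low at both sites, 6.72 in the primary and 7.45 in the lung metastasis, where its osteoblast mean was 11.7 and its mitosis mean 8.64. The liver metastases were at 10.73 (CR-147) and 9.15 (RF-342).

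Cdkn2b, which encodes p15INK4b, lies beside Cdkn2a. Its spread over the 18 primaries was the widest of the 10 genes, with an SD of 1.56 (95.9% of genes tested had a lower one). Within the 14 primaries with high osteoblast genes the SD was 1.29, below the 1.44 of Cdkn2a. RF-56 and CR-45, first and second of the 18 for Cdkn2b, are among the 4 low in osteoblast genes. Cdkn2b was at 6.23, 8.4 and 11.97 in the localized and 6.5, 7.82 and 10.58 in the metastatic primaries, which overlapped. The difference was -0.84 (SE 0.72, adjusted p = 0.871 with limma). RF-56 was highest at 11.97, 3.64 above the median of the primaries, and its neighbour Mtap, an enzyme of methionine salvage, was also highest there at 11.52 (1.49 above its median). RF-379, lowest for Cdkn2a, was second lowest for Cdkn2b (6.5, -1.83 from the median) and for Mtap (8.94, -1.09 from the median), and Tusc1, beyond Elavl2 on the Cdkn2b side, was lowest of the 18 there (8.46, -1.91). On the Mtap side Ifna1 was highest there, by 0.47 at a level near the detection limit (5.81). In its lung metastasis Cdkn2b was not low, at 9.24, a log2 difference of 2.74, while Cdkn2a stayed at 7.45 and Mtap at 8.59. Cdkn2b was higher in lung in 6 of 7 pairs, from -0.79 in CR-147 to 2.74, with a mean of 0.58 (SE 0.36, limma adjusted p = 0.327), or 0.22 without RF-379 (SE 0.25, adjusted p = 0.603).

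In liver, Cdkn2b was at 6.19 in CR-147 and at 5.08 in RF-342, where it was not detected. Both values lay below all 12 metastatic primaries. How many of all genes lie apart in this way with 2 liver arrays was not counted. The difference was -1.90 (SE 0.83, limma adjusted p = 0.185) against the primaries and -2.26 (SE 0.86, adjusted p = 0.121) against the lung metastases. Hepatocyte genes averaged 12.9 and 13.05 in the liver arrays, and their part in the low Cdkn2b values was not tested. The primary of CR-147 was at 6.95 and its lung metastasis at 6.16, so that tumour was low for Cdkn2b at all 3 sites.

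Cdkn2c, which encodes p18INK4c, was at 9.27, 9.7 and 10.81 in the localized and 7.89, 9.6 and 10.23 in the metastatic primaries. The metastatic mean was lower by a log2 difference of -0.56 (SE 0.31, 95% interval -1.20 to 0.08, limma adjusted p = 0.786), within the spread of the tumours. CR-147 was at 7.89 in the primary, 7.38 in the lung metastasis and 7.55 in the liver metastasis, which were the 3 lowest of the 27 arrays. CR-65 was highest at 10.81, and the tested genes on 1 side of it, Rnf11 (1.91 above its median) and Ttc39a (1.31 above), were also highest in CR-65 of the 18 primaries. Cdkn2c was lower in lung than in the own primary in 7 of 7 pairs, from -0.82 in RF-364 to -0.04 in RF-212, with a mean of -0.34 (SE 0.14, unadjusted p = 0.039, limma adjusted p = 0.165). The other Cdkn2c probes were lower in lung in 7 and in 6 of 7 pairs, the exception being RF-212 (5.96 in the primary and 6.36 in lung).

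On the Cdkn2c probe used, levels in lung followed those in the own primary. Over 7 pairs the 2 levels correlated at Pearson's r = 0.95 (exact permutation p = 0.00218, adjusted p = 0.0218 over 10 genes) and Spearman's rho = 0.96 (exact permutation p = 0.00278, adjusted p = 0.0278), and r was 0.89 without the 2 pairs farthest from the median. The other Cdkn2c probes gave r = 0.80 and 0.63 (exact permutation adjusted p = 0.161 and 0.333 with each in place of the probe used), and rho = 0.71 and 0.64 (adjusted p = 0.294 and 0.463). On the second of these FC-28 went from 8.18 to 5.14, where it was not detected, a difference of -3.04 against -0.38 on the probe used. Ccnd2 gave r = 0.84 (exact permutation adjusted p = 0.0476) and rho = 0.82 (adjusted p = 0.17), with r = 0.82 without the 2 farthest pairs. Its other probes were not tested in this way. Over 27 arrays they correlated with the Ccnd2 probe used at 0.99, 0.81 and 0.31, the last being detected on 3 arrays. The other 8 genes gave r between -0.60 (Rb1) and 0.60, with adjusted p of 0.333 or more by the exact permutation test. Without the FC-28 pair neither gene passed, with r = 0.95 (exact permutation adjusted p = 0.0833) for Cdkn2c and 0.84 (adjusted p = 0.13) for Ccnd2. Over these 6 pairs Ccnd1 had r = 0.83 and rho = 0.94 (exact permutation adjusted p = 0.13 and 0.0835), with r = 0.97 without the 2 farthest pairs. Cdkn2a had r = 0.91 and rho = 0.31 (exact permutation adjusted p = 0.18 and 0.714), and its r was 0.36 without the 2 farthest pairs, so it rests on RF-379. All lung arrays were in the low-background set, as was 1 of the 7 primaries, FC-28, so within-background values of this relation are those without FC-28.

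**Figure D3:**
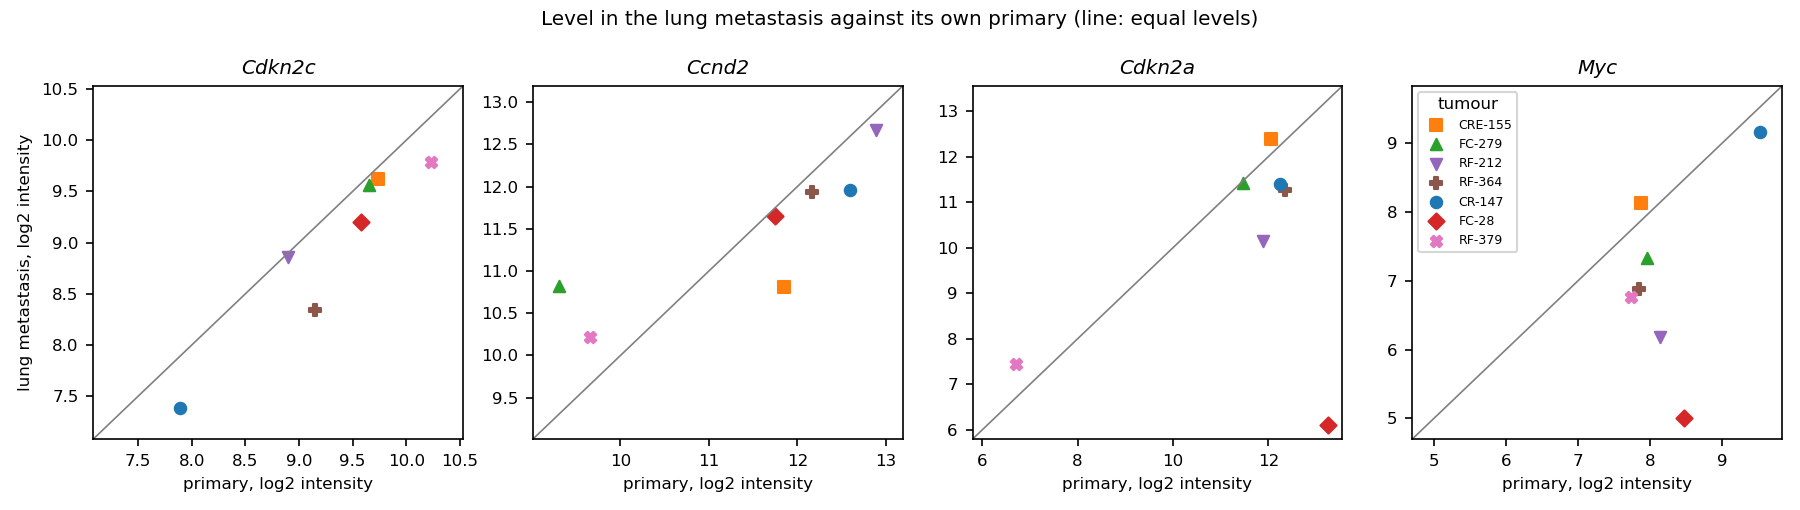
Log2 intensity in the lung metastasis against that in its own primary for Cdkn2c, Ccnd2, Cdkn2a and Myc, 1 point a pair (7 pairs), with a line of equal levels. The Cdkn2c points follow the line just below it, and FC-28 lies far below it for Cdkn2a (13.25 in the primary, 6.1 in lung) and Myc (8.47 and 5).

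Among the D cyclins, Ccnd1 was at 11.88, 13.32 and 14.61 in the localized and 12.39, 13.5 and 14.96 in the metastatic primaries, a log2 difference of 0.20 (SE 0.39, limma adjusted p = 0.946). RF-364 was highest in the primary (14.96) and in the lung metastasis (14.89), and RF-191 lowest (11.88), on all 3 Ccnd1 probes for the primaries. In RF-364 the neighbours LTO1 and Tpcn2 were first and second of the 18 primaries, by smaller amounts, 0.92 and 0.35 above their medians, with Ccnd1 1.61 above its own. The next tested gene on each side was not high there. Ano1, beyond LTO1, was at -1.54 from its median (rank 16 of 18), and Mrgprf, beyond Tpcn2, at -0.14 (rank 10). Lung metastases were at 12.03, 13.42 and 14.89, with a mean pair difference of -0.26 (SE 0.27, limma adjusted p = 0.547).

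Ccnd2 was at 11.41, 12.57 and 13.03 in the localized primaries and at 9.31, 11.94 and 12.89 in the metastatic ones. The difference was -0.73 (SE 0.47, 95% interval -1.71 to 0.25, limma adjusted p = 0.827). The primaries FC-279 (9.31) and RF-379 (9.65) lay below the other 16, whose lowest was CR-45 at 11.26. Their lung metastases were at 10.82 and 10.22, below the median of 11.65 over the 7, and the CRE-155 metastasis was at 10.81. The nearest tested neighbours of Ccnd2 did not share the low level in FC-279 (differences from their medians of -0.25 to 0.17). The mean pair difference was -0.02 (SE 0.28, 95% interval -0.66 to 0.61, limma adjusted p = 0.965).

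Ccnd3 varied least of the 10 genes, with an SD of 0.33 over the primaries (17.8% of genes tested had a lower one). It was at 11.79, 11.93 and 12.45 in the localized and 11.22, 11.75 and 12.24 in the metastatic primaries, a difference of -0.32 (SE 0.16, limma adjusted p = 0.773). The mean pair difference in lung was 0.00 (SE 0.15, 95% interval -0.34 to 0.34). Its other probes followed the one used only loosely (r = 0.53 and 0.65 over 27 arrays).

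Cdk4, the kinase partner of the D cyclins, varied little among the primaries, at 10.96, 11.51 and 11.68 in the localized and 10.56, 11.18 and 11.99 in the metastatic ones (difference -0.15, SE 0.20, limma adjusted p = 0.918). Its SD of 0.4 was below the median SD of all genes. In the lung metastases it was at 14.4 in CRE-155, 12.14 in FC-279, 11.76 in CR-147, 10.84 in RF-364, 10.47 in RF-212, 10.45 in RF-379 and 9.36 in FC-28. The CRE-155 metastasis was highest and FC-279 second of all 27 arrays, and FC-28 was lowest.

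The CRE-155 primary was at 11.12, below the median of the primaries, so Cdk4 was 9.72-fold higher in the metastasis (log2 difference 3.28), the 128th highest of 11214 genes in that pair. The other 6 pairs lay between -2.06 and 0.90. On the second Cdk4 probe CRE-155 went from 8.47 in the primary to 11.46 in lung. The skeletal muscle mean was 13.57 in that primary and 6.93 in the metastasis, and its part in the Cdk4 difference was not tested. The mean over the 7 pairs was 0.18 (SE 0.51, limma adjusted p = 0.844), with 3 pairs higher, and it was -0.34 without CRE-155 (SE 0.34, adjusted p = 0.537).

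The genes next to Cdk4 on the chromosome were high in the same metastasis. In the order Lrig3, Ctdsp2, Avil, Tsfm, Mettl1, Cdk4 and Tspan31, the 7 log2 differences of the CRE-155 pair were 2.45, 1.59, 5.07, 3.0, 3.41, 3.28 and 3.11, and each was the highest of the 7 pairs. Tsfm, a mitochondrial translation factor, Mettl1, a tRNA methyltransferase, and Tspan31, a tetraspanin, lay between -0.57 and 1.07 in the other pairs. Avil, which encodes advillin, also differed widely in the other pairs, from -2.68 to 4.25. The neighbours beyond the run on both sides did not share it: Usp15 before Lrig3 was at -0.96 (not detected in the metastasis), and Os9 and B4galnt1 after Tspan31 were at 0.36 and 0.10. In the CRE-155 primary, Tsfm, Mettl1, Cdk4 and Tspan31 stood at 0.08, 0.46, -0.20 and -0.52 from the median of the 18 primaries, while Lrig3 (1.14) and Ctdsp2 (0.55) were each second highest of the 18 and Avil was at 0.74. The window of 8 tested genes on each side was chosen after these values were seen, and the arrays do not measure DNA copies.

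Cdk6, the second kinase of the pathway, was near the detection limit in most tumours, at 5.33, 6.05 and 6.65 in the localized and 5.24, 6.17 and 8.63 in the metastatic primaries (difference 0.30, SE 0.35, limma adjusted p = 0.911). Only 1 probe measured it. FC-279 was highest in the primary, at 8.63 with the next, FC-28, at 6.84, and highest in lung, at 7.48 with the others between 4.76 and 6.37. In lung, 4 of 7 metastases had detectable Cdk6, and the mean pair difference was -0.52 (SE 0.32, limma adjusted p = 0.319).

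Cdk6 was the first tested gene on its chromosome in the RefSeq order, and the genes that follow it were high in FC-279 as well. From Cdk6 through Steap1, 17 tested genes in a row stood 1.16 to 3.80 above the median of the 18 primaries in the FC-279 primary, with a median of 2.45, and 14 of the 17 were highest there. The exceptions were 1700109H08Rik, Steap2 and Steap1, each second of 18, and the STEAP genes varied widely in the other primaries (for Steap2 from -3.25 to 3.50 around the median). Among the run were Rbm48 (2.76), Gatad1 (2.50), Krit1 (2.34), a gene of vascular integrity, Akap9 (2.91), a scaffold of the centrosome and Golgi, Cyp51 (3.80), an enzyme of sterol synthesis, Fzd1 (2.02), a Wnt receptor, and Cdk14 (2.37), another cyclin-dependent kinase. Mterf1a and Mterf1b are near-identical copies, so their probes may share signal. The next genes were not high: Steap4 was at 0.88, Sri at -0.39, Adam22 at -0.77 and Dbf4 at -0.57.

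The lung metastasis of FC-279 showed the same run. There 16 of the 17 genes were highest of the 7 lung metastases, by up to 2.73 above their median (Steap1), with a median of 1.70. The exception was 1700109H08Rik, at the median of the 7. The window of 20 tested genes was chosen after the values were seen. Cdk4 in the same tumour was at 11.25 in the primary and 12.14 in lung, and Ccnd2 was lowest of the 18 primaries there, at 9.31.

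**Figure D4:**
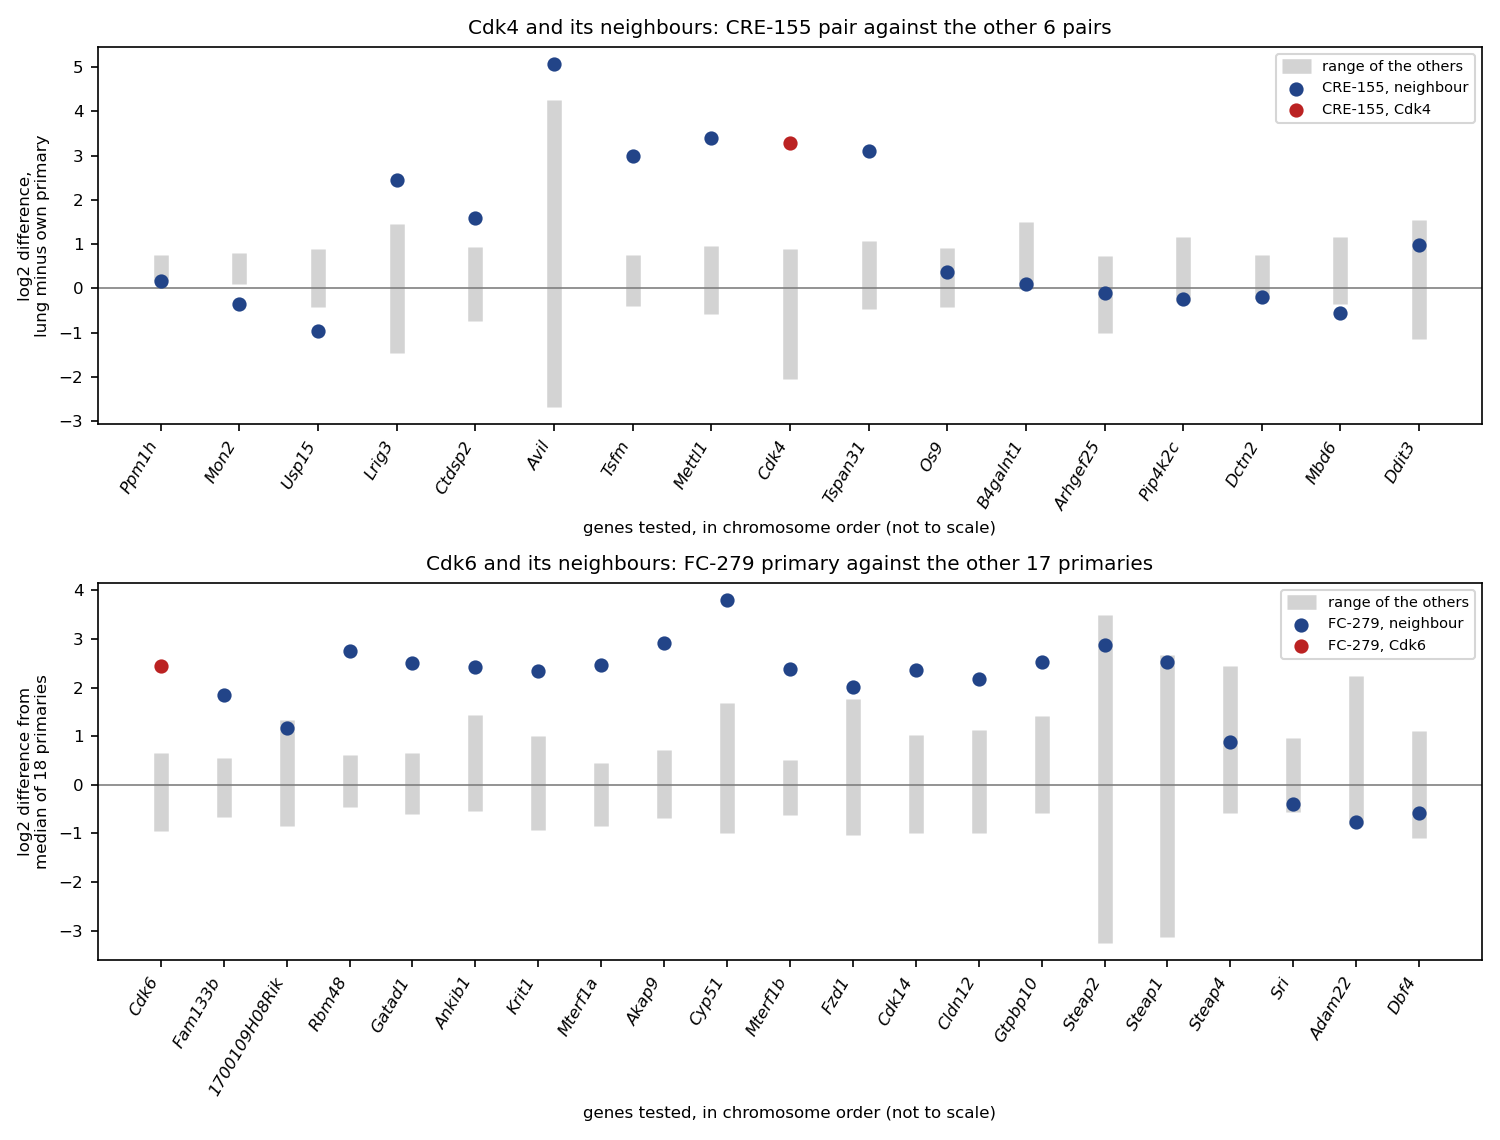
Log2 difference of Cdk4 and its neighbours between the CRE-155 lung metastasis and its primary (top), and of Cdk6 and its neighbours in the FC-279 primary from the median of 18 primaries (bottom). Genes are in chromosome order and not to scale, and grey bars span the other 6 pairs or the other 17 primaries. The runs from Lrig3 to Tspan31 (1.59 to 5.07) and from Cdk6 to Steap1 (1.16 to 3.80) stand apart from the genes next to them.

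Rb1, the retinoblastoma gene, was at 9.23, 9.95 and 10.63 in the localized and 8.96, 10.55 and 11.05 in the metastatic primaries. The metastatic mean was higher by 0.44 (SE 0.26, 95% interval -0.09 to 0.98, limma adjusted p = 0.797), which the test did not separate from the spread between tumours. The lowest primaries were FC-28 (8.96) and CR-65 (9.23), which were also the highest and second highest for Cdkn2a (13.25 and 12.79), and both are among the 4 primaries low in osteoblast genes. The others of those 4 had Rb1 at 9.84 (RF-56, Cdkn2a 12.77) and at 10.7 (CR-45, Cdkn2a 12.29), the last being the fourth highest Rb1 of the 18. Both Rb1 probes placed FC-28 lowest. Its neighbours were near their medians there, Lpar6 at -0.04, Itm2b at -0.06 and Rcbtb2 at 0.55, so the low level was not shared along the chromosome.

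In lung, Rb1 was at 9.95, 10.65 and 11.32, with a mean pair difference of 0.20 (SE 0.33, limma adjusted p = 0.719). FC-28 went from the lowest Rb1 of all 27 arrays in its primary to the highest in its lung metastasis, 11.32, a difference of 2.36, with the other 6 pairs between -0.67 and 0.34. The second probe went from 7.2 to 9.55. Without FC-28 the mean was -0.17 (SE 0.16, limma adjusted p = 0.564). The osteoblast mean was 6.27 and the lung epithelium mean 12.91 on that lung array, and the part of lung tissue in the Rb1 value was not tested. Liver metastases were at 10.28 and 10.48.

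Myc was at 6.83, 7.57 and 8.87 in the localized and 7.09, 7.9 and 10.47 in the metastatic primaries, a difference of 0.48 (SE 0.42, limma adjusted p = 0.877). RF-229 was highest at 10.47 and CR-147 second at 9.53, and CR-147 was also highest of its group in lung (9.16) and in liver (8.21). The nearest tested neighbours of Myc were not high in RF-229: Nsmce2 and Cyrib were lowest of the 18 primaries there (-1.10 and -0.91 from their medians) and Trib1 was at -0.22. This differs from the runs around Cdk4 and Cdk6. The other Myc probe was detected on 2 of 27 arrays and adds little.

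In 6 of 7 pairs Myc was lower in the lung metastasis. The values in lung were 9.16 in CR-147, 8.13 in CRE-155, 7.33 in FC-279, 6.88 in RF-364, 6.77 in RF-379, 6.18 in RF-212 and 5.0 in FC-28, where it was not detected. The pair differences ran from -3.47 in FC-28 to 0.26 in CRE-155, and the ranges of the groups overlapped. The mean was -1.16 (SE 0.39, 95% interval -2.04 to -0.27, unadjusted p = 0.0159), and it did not pass over all genes (limma adjusted p = 0.105). Without FC-28 the mean was -0.77 (SE 0.26, adjusted p = 0.126), and without CRE-155 it was -1.39 (SE 0.39, adjusted p = 0.0853). With each array scaled to its median in place of quantile normalization, Myc passed (-1.34, adjusted p = 0.0339), and so did Cdkn2c (-0.63, adjusted p = 0.0197). Under that scaling the median of all genes was -0.32, against -0.06 under the main one.

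**Figure D5:**
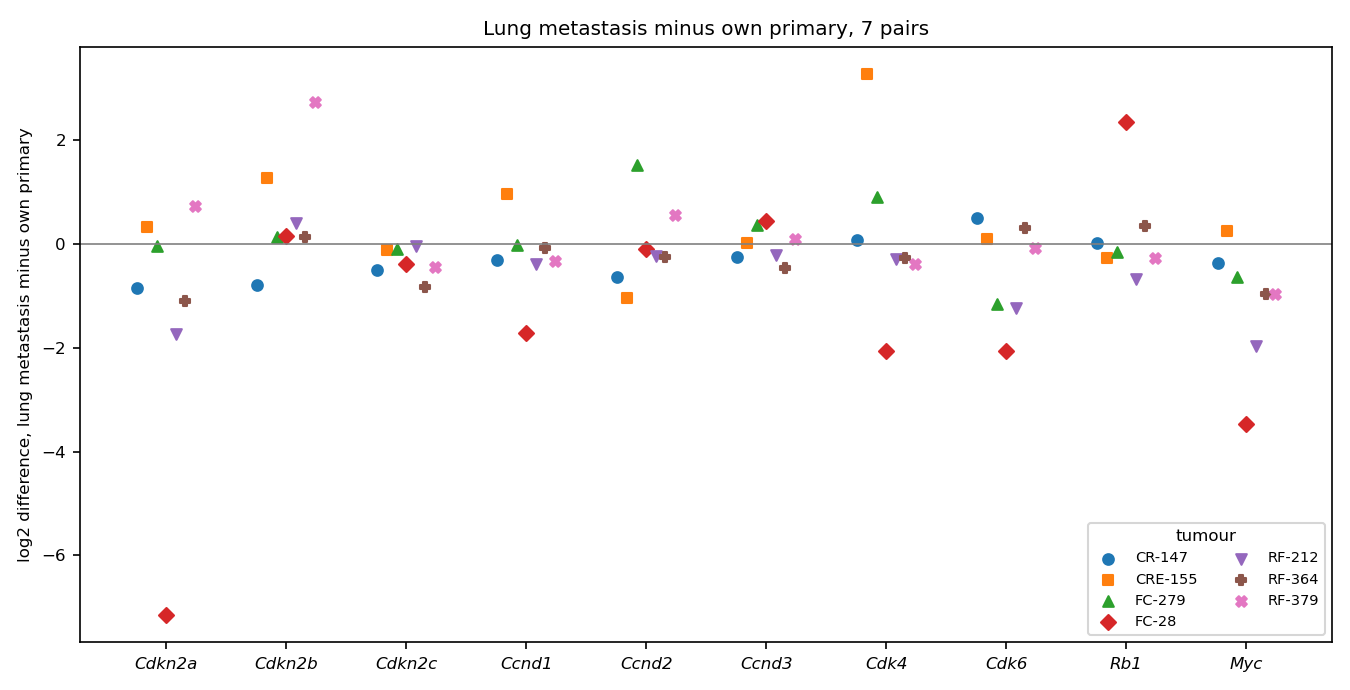
Log2 difference between lung metastasis and own primary for each of the 10 genes, 1 point a pair and 1 symbol a tumour (7 tumours), with a line at 0. FC-28 lies apart for Cdkn2a (-7.16), Rb1 (2.36) and Myc (-3.47), CRE-155 for Cdk4 (3.28) and RF-379 for Cdkn2b (2.74), and all 7 points of Cdkn2c are below 0.

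CR-147 was the only tumour measured at 3 sites, with no replicate at any of them. From primary to lung to liver Cdkn2a was at 12.24, 11.39 and 10.73, and Myc at 9.53, 9.16 and 8.21. The D cyclins were at 13.72, 13.42 and 13.22 for Ccnd1, 12.59, 11.96 and 11.57 for Ccnd2, and 11.52, 11.28 and 10.93 for Ccnd3. These 5 genes had their highest value in the primary and their lowest in liver. How many of all genes take that order was not counted. Cdkn2b (6.95, 6.16 and 6.19) and Cdkn2c (7.89, 7.38 and 7.55) were lowest in lung. Cdk4 was at 11.69, 11.76 and 10.91, Cdk6 at 5.87, 6.36 and 5.85 and Rb1 at 10.62, 10.65 and 10.28. The hepatocyte mean was high in the lung (10.4) and liver arrays of this tumour, and its part in the order was not tested. In RF-342, the second liver metastasis, Cdkn2c was at 8.66, Ccnd1 at 12.47, Ccnd2 at 12.06, Ccnd3 at 11.73, Cdk4 at 10.84, Cdk6 at 5.58 and Myc at 6.66, all within the range of the lung metastases. Over both liver metastases, the genes apart from Cdkn2b differed from the metastatic primaries by -1.76 (Cdkn2a, SE 1.26) to -0.08 (Ccnd2, SE 0.64), with limma adjusted p of 0.327 or more.

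Relations between the genes over tumours were sought within the 14 primaries with high osteoblast genes, since the 4 others form a separate cluster. Of 45 gene pairs, 0 passed after adjustment by Pearson's r or by Spearman's rho. At an unadjusted permutation p under 0.05 there were 2 by r, Cdkn2c with Myc and Cdk4 with Myc, and 2 by rho, Cdkn2c with Myc and Cdkn2c with Ccnd2 (rho -0.59, permutation p = 0.0302, adjusted p = 0.609, r -0.41, -0.53 without the 2 farthest tumours and -0.42 within high background). Cdkn2c and Myc ran opposite to each other, with r = -0.82 (permutation p = 0.00189, adjusted p = 0.0851) and rho = -0.55 (permutation p = 0.0452, adjusted p = 0.609). Without the 2 tumours farthest from the median r was -0.45, and within the 11 tumours of high background it was -0.83, with too few of low background for a value. Cdk4 and Myc had r = 0.56 (permutation p = 0.0344, adjusted p = 0.447) and rho = 0.43 (permutation p = 0.125, adjusted p = 0.654), and r was 0.00 without the 2 farthest tumours and 0.51 within high background. With median scaling r was 0.57, and 0.82 without the 2 farthest tumours. Those tumours are picked anew by their Cdk4 level under each scaling, so the values of 0.00 and 0.82 may leave out different tumours. Against the mean of the mitosis list 0 of 10 genes passed, and the closest was Cdkn2b with r = -0.66 (permutation p = 0.0108, adjusted p = 0.108) and rho = -0.46 (permutation p = 0.0973, adjusted p = 0.4), -0.32 without the 2 farthest tumours and -0.65 within high background.

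Over the 18 primaries the gene most like Cdkn2a was Rpl27, a ribosomal protein gene, at r = 0.94 and 0.84 without RF-379. Next came Smad3 and Gm1673 at 0.80, of which Smad3 was 0.38 without RF-379. The gene most like Myc was Ptchd4 (0.93, and 0.87 without RF-229), followed by Dhodh (0.85) and Gart (0.83), enzymes of pyrimidine and purine synthesis. Bcl7c (0.86) and Ppfia1 (0.84) were most like Ccnd1, and Gatad1 (0.83, and 0.39 without FC-279) most like Cdk6. For the other genes the highest values were Smim8 for Cdkn2b (0.80), Ankrd12 for Cdkn2c (0.80), H13 for Ccnd2 (0.72), Hdgfl2 for Ccnd3 (0.73), 4930430F08Rik for Cdk4 (0.85) and Rapgefl1 for Rb1 (0.85). These are Pearson correlations across samples on shared arrays, picked as the highest of 11684 genes, and serve as a description.

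The wider pathway was described by 7 gene lists. Between metastatic and localized primaries 0 members of any list passed. List medians ran from -0.13 for the regulators of the INK4 locus to 0.14 for E2F targets, the replication genes switched on when RB lets E2F go, against 0.01 for all genes. The member closest to the threshold was Cdkn1b, the inhibitor p27KIP1, at 7.18 in the localized and 6.49 in the metastatic primaries (-0.69, SE 0.26, limma adjusted p = 0.685). Elsewhere the smallest p-values belonged to E2f2 (0.87, SE 0.37), the Polycomb subunit Eed (0.47, SE 0.19), Mxd3 (-0.70, SE 0.30), the translation factor Eif4e (0.83, SE 0.34), Rfc3 (-0.44, SE 0.23) and Ttk (0.34, SE 0.24), with limma adjusted p from 0.718 to 0.842.

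In the lung pairs every E2F target and mitosis gene tested had a negative mean difference, and FC-28 and RF-212 carried most of it. The mean of the E2F list differed by -2.41 in FC-28, -1.58 in RF-212, -0.51 in FC-279, -0.38 in RF-364, -0.05 in CRE-155, -0.04 in CR-147 and 0.00 in RF-379. Its mean over the 7 pairs was -0.71, or -0.43 without FC-28 and -0.20 without FC-28 and RF-212, and for mitosis genes these were -0.66, -0.42 and -0.21. Of the 20 E2F targets 1 fell past the threshold, where 2.59% of all genes did, with a list median of -0.75 against -0.06 for all genes. That gene was Ccna2, cyclin A, at -0.93 (SE 0.20, limma adjusted p = 0.0245), lower in 7 of 7 pairs and detected in 4 of the 7 lung metastases. Its call was lost without FC-279, RF-212 or RF-364 (adjusted p 0.0641, 0.065 and 0.0671). The same held with array background as a covariate (-1.23, limma adjusted p = 0.444) and without the replicate block (adjusted p = 0.245). Of the 14 mitosis genes 0 passed, with a median of -0.85. The closest were the kinase gene Ttk at -0.72 (SE 0.23, adjusted p = 0.0933) and Tpx2, for a spindle protein, at -1.28 (SE 0.42, adjusted p = 0.0988). Of 16 MYC targets 13 were negative (median -0.49), and 1 fell past the threshold (2.59% of all genes did). It was Bop1, a ribosome assembly factor, with a mean of 9.79 in the primaries and 8.93 in lung (-0.87, SE 0.16, limma adjusted p = 0.0128), lower in lung in 7 of 7. The call did not hold with FC-279 left out (adjusted p = 0.0544), nor with the 3 pairs high in hepatocyte genes left out (-1.05, adjusted p = 0.0971). It was also lost with array background as a covariate (-1.64, limma adjusted p = 0.207) and without the replicate block (adjusted p = 0.13). Lung epithelium genes were high on every lung array, and their part in these list shifts was not tested.

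Among the E2F partners 0 of 12 passed, with Mybl2 at -1.03 (SE 0.32, limma adjusted p = 0.0845) and E2f3 at -0.97 (SE 0.37, adjusted p = 0.138). Of the CDK inhibitors and partners 0 of 13 passed, and cyclin E genes were closest, Ccne1 at -0.89 (SE 0.29, adjusted p = 0.0956) and Ccne2 at -1.01 (SE 0.38, adjusted p = 0.14). Of 19 regulators of the INK4 locus 1 rose, where 5.69% of all genes did. It was Tbx3, a T-box repressor of Cdkn2a, higher by 1.89 (SE 0.40, limma adjusted p = 0.0224), from a mean of 7.36 to 9.25 and in 6 of 7 pairs. The Tbx3 call did not hold when 1 of 4 pairs was left out (adjusted p 0.0639 without CRE-155, 0.0628 without FC-279, 0.0726 without RF-212 and 0.0619 without RF-379). With array background as a covariate its difference was 0.14 (adjusted p = 0.971). In that fit all lung arrays and 1 of the 7 primaries are of low background. The Tbx3 call was also lost without the replicate block (limma adjusted p = 0.219) and without the detection filter (adjusted p = 0.0556). In the MYC network 0 of 13 passed, with Mxd3, a repressor that pairs with MAX, at -0.53 (SE 0.19, adjusted p = 0.123) and Mycl at 1.27 (SE 0.49, adjusted p = 0.139). In liver, Mlxipl, the carbohydrate-response factor abundant in hepatocytes, was at 8.66 against 5.12 in lung (3.48, SE 0.54, limma adjusted p = 8.29e-05) and 5.28 in the metastatic primaries (3.27, SE 0.52, adjusted p = 9.81e-05). Mrto4, a ribosome assembly factor, was lower in liver than in the metastatic primaries by -1.58 (SE 0.43, limma adjusted p = 0.0194), a call lost without either liver array (adjusted p 0.128 and 0.299). No other member of the 7 lists passed in liver. There the E2F targets had lower means than in the metastatic primaries in 19 of 20 (median -0.46 against -0.17 for all genes). Their means were higher than in lung in 17 of 20 (median 0.22 against -0.10), with 0 past the threshold in either comparison. The mean of the E2F list was 8.74 and 9.33 in the liver arrays. In lung its median was 9.17, with the lowest values in FC-28 (6.85) and RF-212 (8.12), so liver was not above the typical lung metastasis.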

How the data were processed

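RNA of 27 tissue samples was hybridised to 1 array each. The authors' bead files hold, per the file headers, the average signal of 45281 probes, which is an intensity not yet normalized, on a linear scale. Their detection score, a fraction between 0 and 1 deposited by the authors, was turned into a detection p-value as 1 minus the score, and the deposited bead numbers had a median of 41 to 44 per array. BeadStudio is named, per the submitters' processing notes, with no version. The authors' series matrix holds log2 values, within 0.606 of an own quantile normalization of uncorrected log2 signals, and served in an alternative fit.

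The platform annotation gave 34885 probes 1 symbol, gave 18 probes several and gave 10378 none; only probes with 1 symbol were used. Intensities were corrected and quantile normalized over 27 arrays with neqc (limma 3.58.1, R 4.3.3, offset 16) to log2 values. Detected means a detection p under 0.05. Genes detected on at least 6 arrays (primaries), 7 (lung pairs) or 2 (liver) were tested two-sided with limma's lmFit and eBayes and Benjamini-Hochberg adjustment. The specimen was a fixed block for lung pairs and a random block over 21 arrays for liver (duplicateCorrelation, statmod 1.5.0, consensus correlation 0.355). Labels pair each lung metastasis with its primary. Deviations from group means correlated at 0.32 to 0.55 within pairs, and in 7 of 7 the own primary gave the highest value. Correlations used exact permutations (7 pairs) or 100000 resamples. The fits were tested on simulated data.

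The 10 genes and all lists were chosen with earlier results of these data known. Named were the 10 genes, list members past the threshold (otherwise up to 2 with the smallest p-values), the tested neighbours in RefSeq order and the genes most like each of the 10; the wider windows around Cdk4 and Cdk6 were added after their values were seen. No arrays were duplicates (highest correlation 0.978). Alternatives were median scaling, no background correction, the series matrix, no detection filter, the mean of detected probes, arrayWeights, array background as a covariate or within sets, other blocks, the specimen prefix as a covariate, and leaving out arrays singly or by marker list. The number of arrays limits the precision.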

Additional observations from a re-analysis of the deposited data

Results flagged for a closer look

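Of 30 groups of values examined for 1 sample far from the rest, 2 held one, and chance gives about 1 in 20. Both were pair differences of FC-28. Cdkn2a was at -7.16 (lung minus own primary, log2) in FC-28 and between -1.73 and 0.73 in the other 6 pairs. Rb1 was at 2.36 in FC-28 and between -0.67 and 0.34 in the others. The osteoblast mean of that lung array was 6.27, against 11.7 to 13.19 in the other 6, and its mitosis mean 5.95, against 7.36 to 8.64. Their part in the 2 values was not tested.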

How the results depend on the processing

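In metastatic against localized primaries, and in liver metastases against metastatic primaries, the count of the 10 genes past the threshold was 0 under every alternative run. In the lung pairs it was 0 except with median scaling, where it was 2 (Myc and Cdkn2c), and it was 0 in every fit that left out a pair. In liver against lung it was 0 except with arrayWeights, where it was 1, Cdkn2b at -2.53 (adjusted p = 0.0368, range over alternatives 0.0368 to 0.659). The count of genes whose lung levels correlated with those of the own primary past the threshold by Pearson's r was 2, and it was 1 with median scaling and 0 without FC-28. By Spearman's rho it was 1, 0 and 0. Leaving out FC-28 and the other Cdkn2c probes (r 0.63 and 0.80, neither past the threshold) were chosen after seeing the data. The cause of these changes was not tested. Differences of single genes were counted once per gene and alternative. Over the 4 comparisons 11, 22, 10 and 8 of these values took the other sign, with neither value past the threshold. In the same order 289, 154, 99 and 92 kept both sign and call, and no called value reversed.

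For all genes, the lung pairs gave 638 higher and 291 lower with the block on the pairing, and 444 and 88 without the replicate block (0 of the 10 genes). They gave 643 and 2022 with median scaling, and 17 and 9 with array background as a covariate. With the specimen as a random block over 21 arrays they gave 1129 and 860. Without the 3 pairs high in hepatocyte genes they gave 119 and 16. With 1 pair left out they gave 280 to 478 higher and 61 to 205 lower. Within low background only the primary of FC-28 was left beside the lung arrays, so no counts are given. Liver against lung gave 778 higher and 438 lower, and 376 and 135 or 609 and 141 without 1 liver array. Liver against metastatic primaries gave 958 and 308, and 502 and 62 or 770 and 88. Without the replicate block no gene of the 10 passed in any liver comparison either.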
